A study of Homo sapiens with 5 samples.

Results

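Members of the WNT pathway and of its planar polarity branch were followed across 5 RNA libraries of SH-SY5Y, a human neuroblastoma line that can take on a neuron-like form. The members are every gene symbol of the WNT, FZD, SFRP, DKK, DVL, PRICKLE, VANGL and CELSR families in the deposited tables, together with LRP5, LRP6, ROR1, ROR2, RYK, AXIN1, AXIN2, TCF7, TCF7L1, TCF7L2, LEF1, CTNNB1 and APC. The rule uses names and no measured value, although the families were picked with earlier results of these data known, and it finds 62 of 26364 symbols: 19 ligands, 8 secreted antagonists, 15 receptors, 7 cytoplasmic transducers, 4 TCF/LEF factors and 9 core planar polarity genes. The study had 5 groups of 1 library each. Cells labelled siControl, siSTAU1 and siUPF1 had been given a control siRNA or one against STAU1, a protein that binds double-stranded RNA, or against UPF1, an RNA helicase on which nonsense-mediated decay depends, and their medium label lists serum (10%) and antibiotics (1%). Cells labelled Nondifferentiation and Differentiation carry a medium label that adds 50 uM retinoic acid for both, although the value column of the Nondifferentiation library is headed proliferation. All 5 were the same line, and no age, time or number of pooled cultures is given in the labels. The study looked for transcripts that rise on loss of either decay factor and also in differentiated cells.

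WNT proteins are secreted lipid-modified signals that bind Frizzled receptors (FZD). With the co-receptors LRP5 and LRP6 they stop a complex built on AXIN and APC from destroying beta-catenin (CTNNB1), which then acts with the DNA-binding TCF/LEF factors. A second branch uses Frizzleds with ROR1, ROR2 or RYK and the planar polarity proteins PRICKLE, VANGL and CELSR to orient cells and growing axons, and Dishevelled (DVL) serves both branches. SFRP proteins capture WNTs, while DKK1 and DKK2 act on LRP5 and LRP6. In the neural crest, from which neuroblastoma arises, WNT signals take part in induction and migration, and retinoic acid is widely used to drive neuroblastoma cells towards neurons.

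Each library gave 1 log2 value per symbol from 3' end sequencing of polyadenylated RNA. Depth was estimated from the values at between 16700000 and 26400000 reads per library, the deepest being Differentiation. With 1 library per group no test is possible and no p-value is given. A difference is the log2 fold between 2 libraries. Its interval covers the sampling of reads only, since nothing here measures how far cultures of a group vary. A gene was measured in a comparison when the larger of its 2 values reached the median of all nonzero values there, a log2 value of 7.76 for Differentiation against Nondifferentiation, or about 294 and 207 reads. It was called from 2-fold upwards in either direction, a log2 fold of 1. STAU1 stood at 11.34 in siSTAU1 against 12.87 in siControl, and UPF1 at 9.20 in siUPF1 against 10.74. Defining noradrenergic markers of the line were present in every library, with 0 of 13 at 0 reads. In bulk RNA, fewer cells of a kind and less RNA per cell cannot be told apart.

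Of the 62 members, 27 were measured in at least 1 comparison, 12 had more than 10 reads in some library but lay below the floors, 9 never exceeded 10 reads and 14 had 0 reads in all 5 libraries. Ligands were nearly absent from the measured members, with 1 of 19, while 8 of 15 receptors, 6 of 7 transducers and 4 of 4 TCF/LEF factors were measured. All 27 were measured in Differentiation against Nondifferentiation, where 9064 of all 26364 symbols were. Single libraries had from 9583 (Differentiation) to 9932 (siControl) of all symbols at 0. The share of all symbols at 0 in all 5 libraries was not taken. The 14 members without a read were WNT1, WNT2, WNT3A, WNT7A, WNT7B, WNT8A, WNT8B, WNT9A, WNT9B, WNT10B, SFRP2, DKK4, FZD10 and PRICKLE2. A count of 0 allows up to 3 reads, or 0.114 CPM (reads per 1000000 reads) in Differentiation and 0.18 CPM in siControl, the shallowest library. The 9 members with no more than 10 reads were WNT2B, WNT4, WNT6, WNT10A, WNT11, SFRP1, SFRP5, FZD8 and PRICKLE4.

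The Differentiation library lay at least 2-fold above all 4 others for 7 of the measured members and at least 2-fold below them for 1, TCF7. The share of all genes that did so was not taken. Against Nondifferentiation 27 members were measured, and 9 were higher and 2 lower in Differentiation. Of all 9064 measured genes 21.3% were called, 10.4% as higher and 10.9% as lower, beside 33.3% and 7.41% of the measured members. The median log2 fold was 0.50 over these members and 0.02 over all measured genes. Of the 27, 7 passed the floor through the Differentiation value alone (DKK2, DKK3, FZD7, PRICKLE1, ROR1, TCF7L1 and WNT5A), and a gene that enters in this way has to be higher there. Of the 20 members above the floor in both libraries 4 were higher and 2 lower, where 7.18% and 7.89% of all 7693 such genes were. The 9 higher members were above, and the 2 lower members below, all 4 other libraries. Over those 4 libraries the values of a measured member spanned a median of 0.41 on the log2 scale, and 24 of the 27 spanned less than 1, the exceptions being FZD7, ROR1 and PRICKLE1. Positions against all 4 libraries and spans were not counted over all genes, so they are not shown to be particular to the members.

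**Figure D1:**
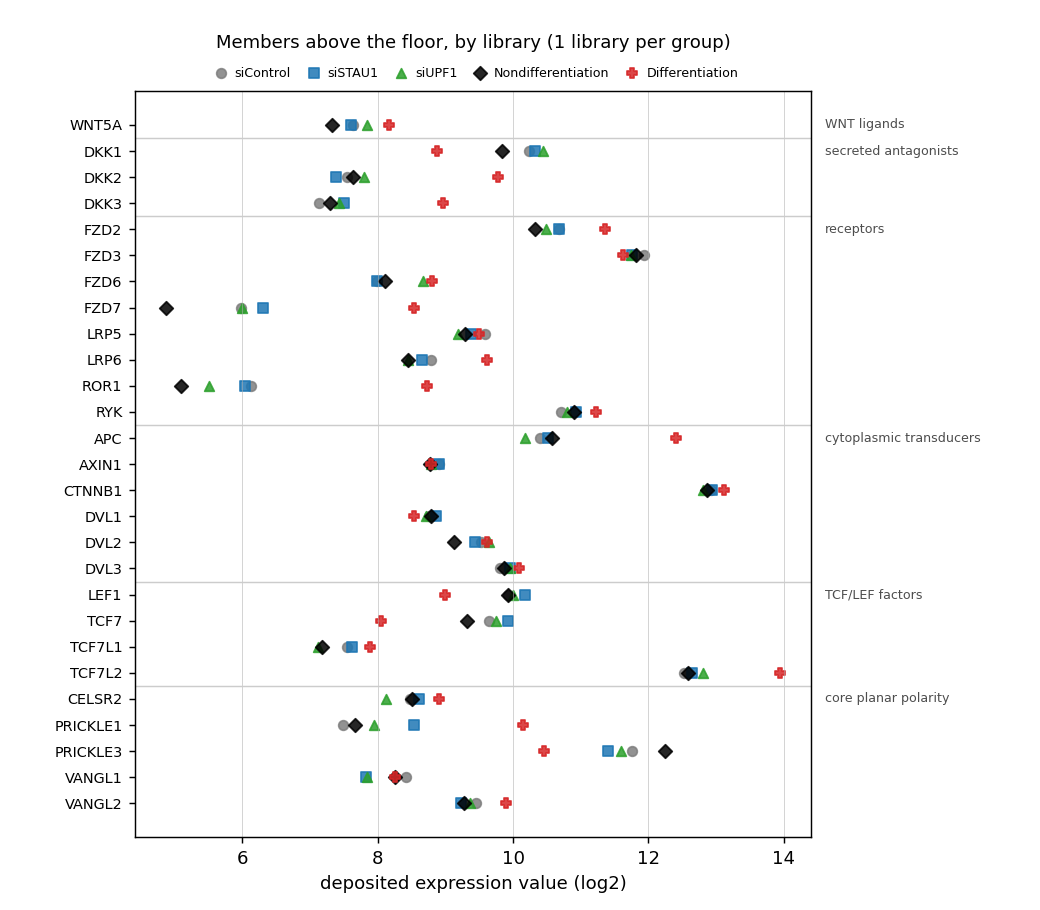
Deposited log2 values (x axis) of the 27 measured members (rows, grouped by role), with 1 symbol per library and no replicates. The Differentiation symbol lies apart from the other 4 for FZD7, ROR1, PRICKLE1, DKK2, DKK3, APC, TCF7L2 and, on the low side, TCF7.

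Related genes went opposite ways in Differentiation, PRICKLE1 against PRICKLE3 and TCF7L2 against TCF7, and ROR1 had a log2 fold close to the highest. The 250 bases before the annotated start of these 5 genes are shown, from RefSeq (GRCh38.p14, not the build hg19 named for the reads), each as the most upstream of the gene's listed windows and 5′ to 3′ on the gene's strand. These libraries read 3' ends and do not show which start was used. The windows were searched on both strands for direct repeats bound by retinoic acid receptors (AGGTCA or AGTTCA followed, after any 5 bases, by either of them on the same strand), for the single site AGGTCA, which also lies within most forms of the repeat, and for the TCF/LEF letters CTTTGAT and CTTTGTT. Capitals mark a match, here the AGGTCA site of TCF7, read on the opposite strand.
ROR1 (chr1:63773767-63774016, + strand): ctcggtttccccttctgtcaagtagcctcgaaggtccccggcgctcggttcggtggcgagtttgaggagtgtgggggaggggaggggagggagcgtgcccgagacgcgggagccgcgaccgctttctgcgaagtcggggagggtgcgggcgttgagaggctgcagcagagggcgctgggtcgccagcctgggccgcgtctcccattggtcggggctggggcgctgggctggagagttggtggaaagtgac
PRICKLE1 (chr12:42483616-42483865, - strand): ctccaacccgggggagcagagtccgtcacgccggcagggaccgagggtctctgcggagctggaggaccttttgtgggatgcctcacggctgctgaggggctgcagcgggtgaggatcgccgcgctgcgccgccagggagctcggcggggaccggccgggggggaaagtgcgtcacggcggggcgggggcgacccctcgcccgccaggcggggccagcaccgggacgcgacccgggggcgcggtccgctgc
PRICKLE3 (chrX:49186374-49186623, - strand): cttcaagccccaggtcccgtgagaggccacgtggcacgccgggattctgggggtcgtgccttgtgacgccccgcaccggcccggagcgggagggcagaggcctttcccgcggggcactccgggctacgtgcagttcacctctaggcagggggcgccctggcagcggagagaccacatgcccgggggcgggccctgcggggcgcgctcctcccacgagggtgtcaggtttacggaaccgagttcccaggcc
TCF7L2 (chr10:112949997-112950246, + strand): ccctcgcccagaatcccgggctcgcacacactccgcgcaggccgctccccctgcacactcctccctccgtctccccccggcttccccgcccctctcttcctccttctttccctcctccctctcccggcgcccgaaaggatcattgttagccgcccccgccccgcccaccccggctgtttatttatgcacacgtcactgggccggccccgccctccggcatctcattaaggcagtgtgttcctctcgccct
TCF7 (chr5:134115363-134115612, + strand): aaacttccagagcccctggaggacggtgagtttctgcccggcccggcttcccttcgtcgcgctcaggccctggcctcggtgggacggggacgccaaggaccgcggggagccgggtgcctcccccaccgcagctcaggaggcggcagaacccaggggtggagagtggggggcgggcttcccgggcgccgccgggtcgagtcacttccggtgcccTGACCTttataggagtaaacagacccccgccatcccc

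Windows of 300 bases, which add 50 bases after the start, were found for 47 of the 62 members, 9 of them with more than 1 window. A direct repeat was in 0 of these 57 windows and in 0.0199% of all 35116. So rare a match could hardly appear in 57 windows, and the 0 does not set the members apart. Of the 9 members called higher in Differentiation only 4 had a window, since DKK2, DKK3, FZD2, FZD7 and LRP6 had none. The single AGGTCA site was in 7.02% of the members' windows, those of TCF7, TCF7L2, WNT2 and WNT16, against 13.8% of all. The TCF/LEF letters were also in 7.02%, those of DKK1, TCF7, TCF7L2 and WNT3, against 7.61% of all. TCF7 and TCF7L2 thus each carried both, in different windows. The matches of TCF7L2 lay in its windows from 113126383 and 113129021, not in the one shown above. Whether any match bears on the folds was not tested. The median GC content was 69.0% in the members' windows and 58.7% in all windows.

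WNT5A was the only ligand above the floor. This ligand of the planar polarity branch stood at 7.33 in Nondifferentiation, 7.63 in siControl, 7.60 in siSTAU1, 7.84 in siUPF1 and 8.17 in Differentiation. Differentiation was the highest, at a log2 fold of 0.83 over Nondifferentiation (counting SE 0.14), under the 2-fold threshold. WNT3, a ligand of the beta-catenin branch, lay below the floor at 56, 54, 65 and 65 reads in siControl, siSTAU1, siUPF1 and Nondifferentiation and 180 in Differentiation. WNT3 thus had 3.10 to 3.51 CPM in the first 4 libraries and 6.82 in Differentiation. WNT16 had 28 reads in Nondifferentiation and 2, 4, 8 and 4 in siControl, siSTAU1, siUPF1 and Differentiation, with a log2 fold in Differentiation of -3.65 (95% counting interval -5.16 to -2.14). WNT5B, a close relative of WNT5A, had 0 reads in Nondifferentiation, 8 in siControl, 12 in siSTAU1, 2 in siUPF1 and 4 in Differentiation. WNT6 had 7 reads in siSTAU1 and 0 in siControl. No ligand other than WNT5A and WNT3 exceeded 28 reads in any library.

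The DKK antagonists split in Differentiation, with DKK2 and DKK3 called higher and DKK1 at its lowest value but not called against Nondifferentiation. DKK2, a ligand of LRP6 that can block or weakly activate it, stood at 7.64 in Nondifferentiation, 7.55 in siControl, 7.39 in siSTAU1, 7.80 in siUPF1 and 9.77 in Differentiation. The first 4 libraries lay close together, and the log2 fold over Nondifferentiation was 2.13 (counting SE 0.11), or 4.38-fold. DKK3, a divergent family member, stood at 7.29, 7.13, 7.50 and 7.42 in the same 4 libraries and at 8.97 in Differentiation. Its log2 fold was 1.68 (counting SE 0.13). DKK1, the inhibitor that withdraws LRP6 from signalling, stood at 9.84 in Nondifferentiation, 10.23 in siControl, 10.33 in siSTAU1, 10.44 in siUPF1 and 8.88 in Differentiation. Differentiation was the lowest library, with a log2 fold of -0.96 (counting SE 0.08) against Nondifferentiation, just short of the threshold, and of -1.35 against siControl, where DKK1 was called lower. SFRP4, a secreted Frizzled-related protein, lay below the floor at 14, 19, 23 and 20 reads in the first 4 libraries and 103 in Differentiation.

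Among receptors FZD7 and ROR1 had the highest log2 folds of all members in Differentiation. FZD7, a Frizzled of stem and progenitor cells, stood at 4.87 in Nondifferentiation, 5.98 in siControl, 6.31 in siSTAU1, 5.99 in siUPF1 and 8.53 in Differentiation. These values rest on 27, 50, 66, 58 and 502 reads. The log2 fold over Nondifferentiation was 3.67 (95% counting interval 3.11 to 4.23), or 12.7-fold, but Nondifferentiation was itself the lowest library, and over siControl the log2 fold was 2.55 (2.13 to 2.97), or 5.87-fold. ROR1, a receptor of WNT5A known from fetal tissue and several cancers, stood at 6.13, 6.04, 5.51 and 5.09 in siControl, siSTAU1, siUPF1 and Nondifferentiation and at 8.73 in Differentiation. It rests on 56, 54, 42, 32 and 576 reads. Its log2 fold was 3.64 (3.13 to 4.16) over Nondifferentiation and 2.60 over siControl, so that for both genes the size of the fold moved more than 1.5 times with the reference while the call stood. Both lay below the floor in all libraries but Differentiation, and both calls were lost when the floor was put on the mean of the 2 values. ROR2, its paralog, lay below the floor between 5.79 and 6.61, with 59 reads in Nondifferentiation and 85 in Differentiation.

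LRP6 and FZD2 were also called, at smaller folds that depended on the reference. LRP6 stood at 8.44 in Nondifferentiation, 8.78 in siControl, 8.65 in siSTAU1, 8.45 in siUPF1 and 9.61 in Differentiation. FZD2 stood at 10.33, 10.68, 10.68, 10.48 and 11.36 in the same order. Differentiation was the highest library for both. The log2 folds were 1.17 (counting SE 0.09) for LRP6 and 1.03 (0.05) for FZD2 over Nondifferentiation but 0.83 and 0.69 over siControl, where neither was called. FZD2 was the higher member nearest to the threshold, and WNT5A at 0.83 the nearest below it. The other measured receptors were not called in this comparison. FZD6 had 0.69, the co-receptor LRP5 0.21, the kinase-like receptor RYK 0.33 and FZD3, a Frizzled of axon guidance, -0.21. Over the 5 libraries FZD3 ranged from 11.62 to 11.93 and LRP5 from 9.18 to 9.59, without a library that stood apart. Below the floor FZD4 had 34, 47, 58, 32 and 122 reads and FZD5 44, 52, 60, 88 and 54 in siControl, siSTAU1, siUPF1, Nondifferentiation and Differentiation. FZD4 had 4.62 CPM in Differentiation against 1.72 to 3.14 elsewhere and FZD5 2.05 against 2.63 to 4.73, so that these were the highest and the lowest libraries. FZD1 ranged from 2.69 to 3.95 CPM, and FZD9 had 5 to 17 reads.

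**Figure D2:**
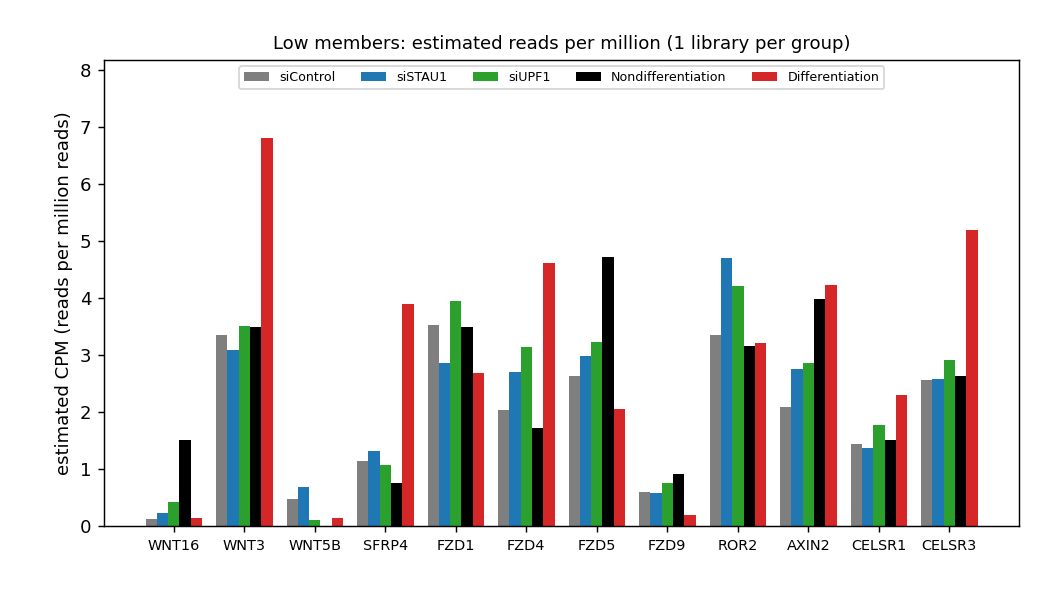
Estimated CPM (y axis, from 0) of the 12 members that lay below the floors but had more than 10 reads in some library, 1 bar per library and no replicates. WNT3, SFRP4, FZD4, AXIN2, CELSR1 and CELSR3 have their highest bar in Differentiation, and FZD5, FZD9 and WNT16 in Nondifferentiation.

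Of the cytoplasmic transducers APC alone was called. APC, a scaffold of the beta-catenin destruction complex that also binds microtubules, stood at 10.58 in Nondifferentiation, 10.39 in siControl, 10.51 in siSTAU1, 10.17 in siUPF1 and 12.41 in Differentiation. The first 4 libraries lay together, and the log2 fold over Nondifferentiation was 1.82 (counting SE 0.04), or 3.53-fold. Beta-catenin itself ranged from 12.81 to 13.12, with a log2 fold of 0.24. AXIN1, the limiting scaffold of the complex in many cells, ranged from 8.77 to 8.91, with 0.02. The Dishevelleds had -0.24 for DVL1, 0.50 for DVL2 and 0.22 for DVL3. For DVL2 Nondifferentiation was the low library, at 9.12, and Differentiation at 9.62 lay within the 3 siRNA libraries, which ranged from 9.43 to 9.65. AXIN2, a feedback inhibitor that beta-catenin induces in many cells, lay below the floor with 35, 48, 53, 74 and 112 reads in siControl, siSTAU1, siUPF1, Nondifferentiation and Differentiation. It had 3.98 CPM in Nondifferentiation and 4.24 in Differentiation against 2.10 to 2.86 in the siRNA libraries. Of the siRNA libraries only siControl had a counting interval against Nondifferentiation that left out 0, -1.36 to -0.19 on the log2 scale.

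Of the 4 TCF/LEF factors TCF7L2 was called higher and TCF7 lower in Differentiation, and LEF1 and TCF7L1 were not called. TCF7L2, which can activate or repress with or without beta-catenin, stood at 12.58 in Nondifferentiation, 12.52 in siControl, 12.64 in siSTAU1, 12.80 in siUPF1 and 13.95 in Differentiation, a log2 fold of 1.37 (counting SE 0.02). TCF7 stood at 9.32, 9.64, 9.93 and 9.75 in the first 4 libraries and 8.05 in Differentiation. Its log2 fold was -1.27 (counting SE 0.10), and -1.59 against siControl. LEF1, which acts largely as an activator, stood at 9.93 in Nondifferentiation and siControl, 10.17 in siSTAU1, 10.00 in siUPF1 and 8.99 in Differentiation. Its log2 fold of -0.94 (counting SE 0.07) against either reference lay just short of the threshold. TCF7L1, mostly a repressor, had 0.71, but only 0.13 after subtraction of the median fold of genes of like level, and it passed the floor through Differentiation alone. The values of TCF7 and LEF1 were thus lowest, and that of TCF7L2 highest, in Differentiation.

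The core planar polarity genes included PRICKLE1, called higher in Differentiation, and PRICKLE3, called lower. PRICKLE1, a cytoplasmic polarity protein mutated in a form of epilepsy, stood at 7.67 in Nondifferentiation, 7.49 in siControl, 8.53 in siSTAU1, 7.95 in siUPF1 and 10.14 in Differentiation. Differentiation was highest and siSTAU1 second, and the log2 fold over Nondifferentiation was 2.47 (counting SE 0.11), or 5.55-fold. PRICKLE3, a paralog on the X chromosome, stood at 12.25, 11.76, 11.40, 11.59 and 10.45 in the same order. Its log2 fold was -1.80 (counting SE 0.04) against Nondifferentiation, the highest library, and -1.31 against siControl. VANGL2, a membrane partner of PRICKLE, had 0.60, and its paralog VANGL1 0.00. CELSR2, an atypical cadherin of the same complex, had 0.39. Below the floor CELSR3, which guides axon tracts, had 43, 45, 54, 49 and 137 reads in siControl, siSTAU1, siUPF1, Nondifferentiation and Differentiation, or 2.57 to 2.92 CPM in the first 4 and 5.19 in the last. CELSR1, its paralog, had 24 to 33 reads in the first 4 libraries and 61 in Differentiation, where its log2 fold over Nondifferentiation, 0.35, had a counting interval that took in 0 (-0.30 to 0.99).

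Replacing Nondifferentiation by siControl as the reference left 9 of the 11 calls standing, lost FZD2 and LRP6, and added DKK1. With that reference 7 members were higher and 3 lower, and 23.8% of all measured genes were called, 11.6% as higher and 12.3% as lower. The 2 comparisons share the Differentiation library. Of the 16 measured members that were not called against Nondifferentiation, 14 had a 95% counting interval that left out 0, all but AXIN1 and VANGL1. The same share over all uncalled genes was not taken, and the interval leaves out the variation between cultures. Summed marker levels of other cell types also differed between the libraries. Mesenchymal or Schwann-like markers summed to 5550 CPM in Differentiation and 2680 in Nondifferentiation, with 2 of 12 at 0 in each, SOX10 among them. FN1 carried most of that sum, with 137345 and 42678 reads, while VIM was called lower, at a log2 fold of -1.25, and COL1A2 had 9 and 19 reads. Noradrenergic markers summed to 2080 and 3080. Epithelial markers summed to 8.94 and 3.23, and blood markers to 19.7 and 8.23. The part of these differences in the folds of the members was not tested.

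**Figure D3:**
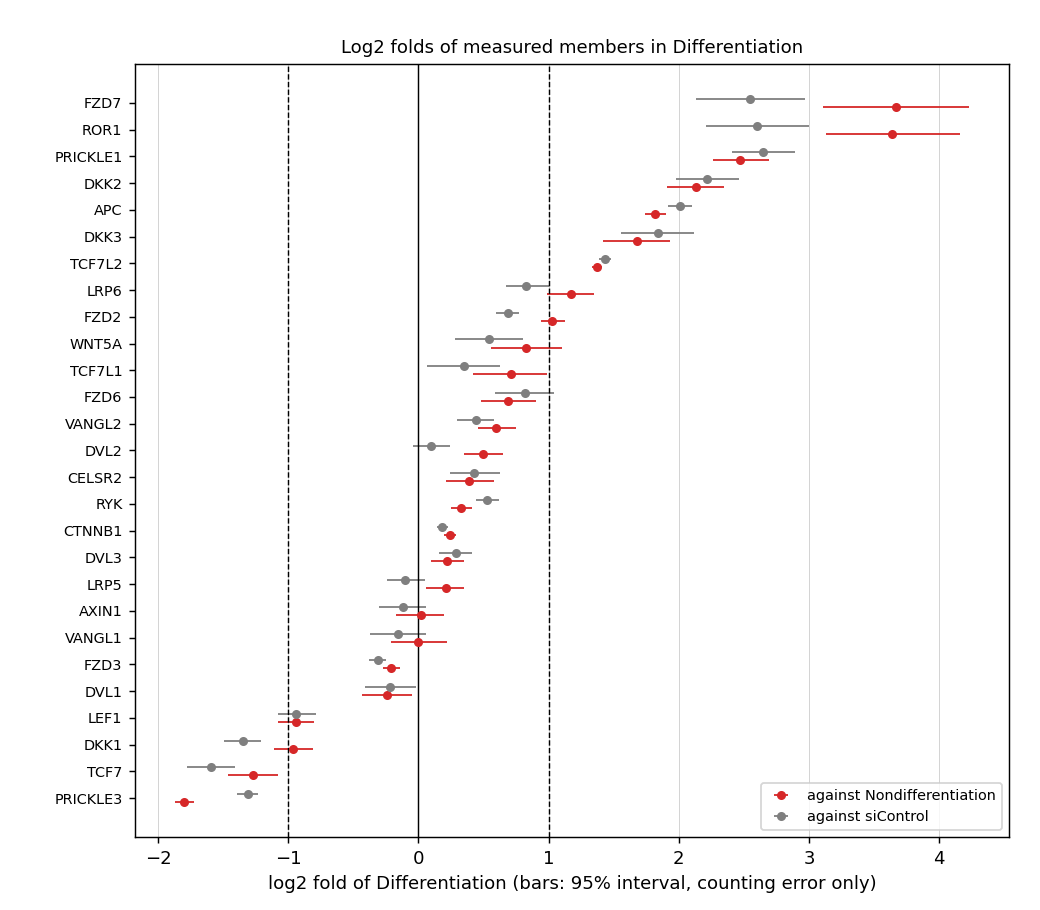
Log2 folds (x axis) of the 27 measured members in Differentiation, against Nondifferentiation (red) and against siControl (grey), ordered by the former, with bars for the 95% interval from counting error alone and dashed lines at 2-fold. FZD7 and ROR1 lie near 3.6 against Nondifferentiation and near 2.6 against siControl, and PRICKLE3 and TCF7 lie below -1 with either reference.

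In siSTAU1 against siControl 21 members were measured, 1 was higher and 0 were lower, where 0.201% of all measured genes were called, 0.0946% as higher and 0.106% as lower. The higher member was PRICKLE1, with 329 reads against 148, a log2 fold of 1.03 (95% counting interval 0.75 to 1.31). It passed the floor of 7.84 through its siSTAU1 value alone, so that here it could only come out higher. Against Nondifferentiation its log2 fold was 0.86 (0.60 to 1.11) and the call was lost, leaving 0 members called in that comparison, where 0.912% of all measured genes were. It was also lost with a pseudocount of 10 linear units or a floor at the upper quartile. In siUPF1 PRICKLE1 had 0.46 (0.16 to 0.76) over siControl and 0.28 (0.01 to 0.56) over Nondifferentiation. It was thus above both references in each knockdown library and in Differentiation, but at 2-fold only in siSTAU1 against siControl and in Differentiation. In all of these comparisons its reference value lay below the floor, so that where measured it could only come out higher. The folds also share their references. The siSTAU1 library also held more epithelial marker RNA than siControl, summing to 31.8 against 2.99 CPM, with 0 of 11 markers at 0 reads against 6 of 11. CDH1 and ESRP1 were at 0 reads in siControl and at 29 and 30 in siSTAU1. PRICKLE1 had 8.86 CPM in siControl and 18.9 in siSTAU1. Whether that RNA carried any of the PRICKLE1 reads was not tested. Of the 21 measured members 19 lay within 0.5 of siControl on the log2 scale, the other exception being VANGL1, at 8.41 in siControl and 7.82 in siSTAU1. The median log2 fold of the 21 was 0.01, the same as over all measured genes, for which the share within 0.5 was not taken.

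In siUPF1 against siControl 21 members were measured and 0 were higher or lower, where 0.543% of all measured genes were called. FZD6 had the highest log2 fold, 0.69 (95% counting interval 0.45 to 0.93), and stood at 8.11 in Nondifferentiation, 7.99 in siControl, 7.99 in siSTAU1, 8.67 in siUPF1 and 8.80 in Differentiation. The siUPF1 and Differentiation values lay together above the other 3 libraries, and against Nondifferentiation siUPF1 had 0.56, with 0 members called and 1.37% of all measured genes. VANGL1 had the lowest log2 fold, -0.58 (-0.83 to -0.32), at 7.84. Both knockdown libraries thus had VANGL1 below siControl by similar amounts, a pattern in which they share the siControl value, and against Nondifferentiation, at 8.25, the log2 folds were -0.43 and -0.42. LRP5 had -0.41 in siUPF1 and -0.22 in siSTAU1 over siControl, and -0.11 and 0.08 over Nondifferentiation. The median of the measured members was -0.09 in siUPF1 and -0.01 over all measured genes. Hepatocyte markers summed to 27.5 CPM in siUPF1 and 4.55 in siControl, nearly all of it ALB, while APOA2, SERPINA1, TTR, FGA, FGG and AHSG were at 0 in all libraries.

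**Figure D4:**
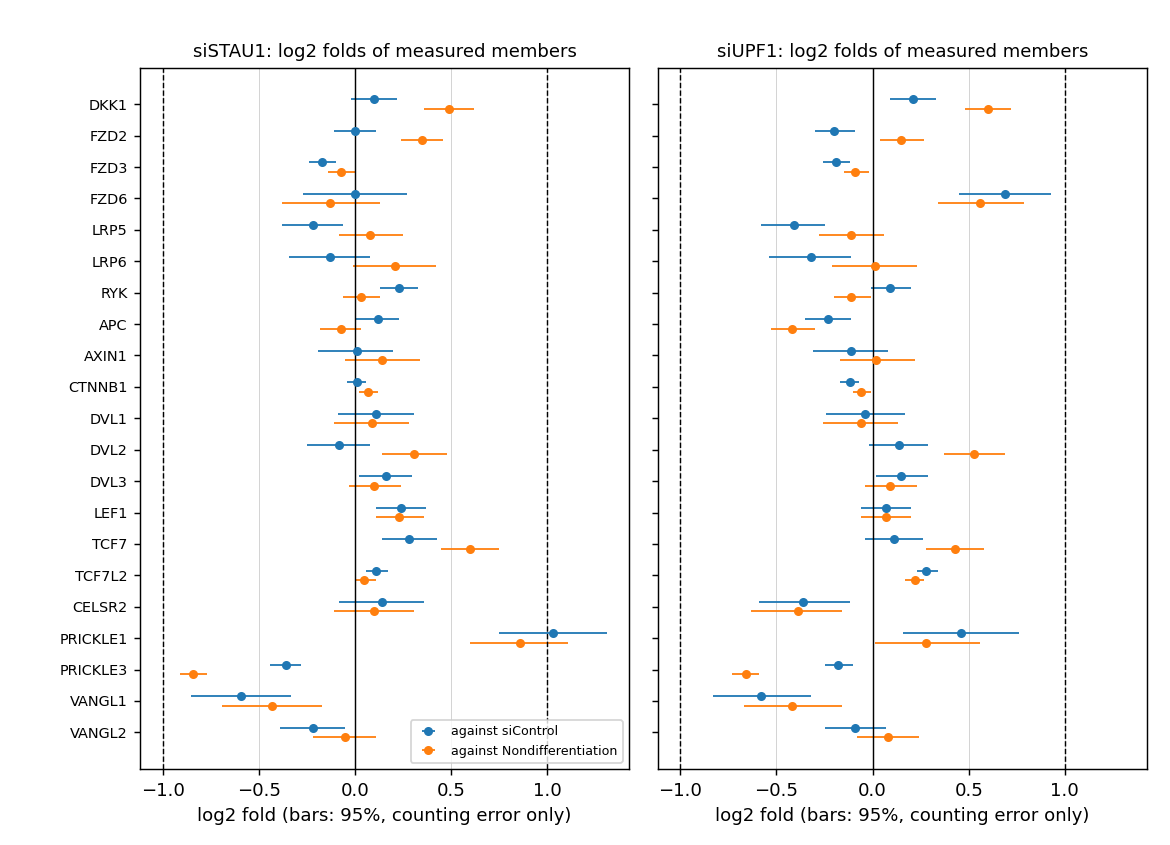
Log2 folds (x axis) of the 21 members measured in a knockdown library against siControl, for siSTAU1 (left) and siUPF1 (right), against siControl (blue) and Nondifferentiation (orange), with bars for the 95% interval from counting error alone and dashed lines at 2-fold. PRICKLE1 in siSTAU1 against siControl, at 1.03, is the only point past a dashed line.

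Between siControl and Nondifferentiation 20 members were measured and 0 were higher or lower, where 0.796% of all measured genes were called. At so low a share, 0 of 20 does not set the members apart. PRICKLE3 had the lowest log2 fold, -0.48, and DKK1 and DVL2 the highest, 0.39 each. Below the floor WNT16 had 2 and 28 reads, FZD7 50 and 27 and ROR1 56 and 32 in siControl and Nondifferentiation. Retinoic acid in the medium label and siRNA treatment both differ between these libraries and cannot be told apart.

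Other genes of the pathway were read from lists drawn up with earlier results of these data known. In Differentiation against Nondifferentiation the destruction complex list had 18 of 24 measured, 2 higher and 2 lower, or 22.2% called beside 21.3% of all measured genes. APC2, a neural paralog of APC, stood at 8.70 in Nondifferentiation and 10.13 in Differentiation, and DACT3, a Dishevelled antagonist, at 8.99 and 10.33. CXXC5, a Dishevelled inhibitor, stood at 8.93 and 7.58 and the phosphatase subunit PPP2R5A at 8.79 and 7.72, but against siControl these last 2 had log2 folds of -0.45 and -0.68. Of the WNT secretion and R-spondin list 4 of 12 were measured and 1 was higher: PORCN, the enzyme that adds the WNT lipid, at 10.04 in Differentiation with a log2 fold of 1.04, while the WNT carrier WLS stood at 11.27 in Nondifferentiation and 11.14 in Differentiation. KREMEN1, the DKK co-receptor, stood at 7.13 and 8.16 and was the 1 measured of 11 other antagonists. Among nuclear partners of beta-catenin 9 of 12 were measured and 0 were called, with TLE4 at a log2 fold of -0.57, PYGO1 at 0.75 and a list median of 0.60. Among common beta-catenin targets, a list that shares ZNRF3, RNF43, NKD1 and LGR5 with the lists above, 4 of 17 were measured. TBX3 was higher, at 12.24 and 13.75, and CCND1, which encodes cyclin D1, was lower, at 12.17 and 11.09. LGR5, an R-spondin receptor, had -0.70.

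Of 36 other planar polarity and noncanonical genes 24 were measured in that comparison, 2 higher and 2 lower, or 16.7% called beside 21.3% of all measured genes, with a median log2 fold of -0.01. ANKRD6, a Dishevelled-binding ankyrin protein, stood at 9.23 in Nondifferentiation and 10.38 in Differentiation and the large cadherin DCHS1 at 9.48 and 10.53. FAT1, a large cadherin of another subfamily, had the lowest log2 fold of the measured genes, -2.83, at 10.91 and 8.08, and -1.98 against siControl. FAT3, a related cadherin named after its values were seen, had 164 reads in Nondifferentiation and 9 in Differentiation and lay below the floor there. Against siControl, with 252 reads, it was measured and called lower, at -5.83. CAMK2B, a calcium-dependent kinase of neurons, stood at 9.76 and 7.82, but had -0.65 against siControl. In the knockdown comparisons with siControl 0 genes of these 6 lists were called, where 0.201% of all measured genes were in siSTAU1 and 0.543% in siUPF1.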

How the data were processed

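The authors deposited 1 log2 expression value per symbol and library. Per the submitters' processing notes Bowtie2, edgeR and hg19 were involved. Their roles and versions, the annotation and the strand setting are not stated there. The deposited values carry the pattern of quantile normalization: unlogged, 100% were multiples of 1/5 within 0.001 linear units. Read counts were recovered as the rank of a level among a library's distinct levels up to 300 reads, where means over the 5 libraries returned 100% of levels within 0.01 linear units, and above that by scaling at 500 reads. Totals were estimated likewise. Log2 folds are differences of deposited values, with counting SE from the read counts. No fold was taken against 3 reads or fewer. Named genes were all members and, per pathway list, up to 2 highest and 2 lowest. The comparison and count steps were tested on simulated data. Only genes above 500 reads were changed there, and fewer than were called in Differentiation. Changed folds of low members and so wide a change were thus not simulated. Members and lists were chosen with earlier results of these data known. Other floors, thresholds, references, pseudocounts and scalings were tried. Python 3.11.15, pandas 2.3.3, numpy 2.4.6 and matplotlib 3.10.9 were used.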

Additional observations from a re-analysis of the deposited data

How the results depend on the processing

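No paired analysis was possible because each group had 1 library, and no library could be left out as a replicate. Of 464 recomputed log2 folds of measured members 419 moved by less than their counting interval, 45 moved by more and 0 called folds changed sign. The 464 include folds under the upper quartile floor and under the floor on the mean of the 2 values. Those settings change which genes are measured and not the fold, so these folds could not move. With bin medians subtracted the Differentiation folds of FZD7, ROR1 and TCF7L1 became 3.09, 3.07 and 0.13. Of the 11 members called in Differentiation, 11 kept their call with bin medians subtracted, a pseudocount of 10, a 1.5-fold threshold, no floor, or the 2 settings chosen after seeing the data, a floor of 50 reads and folds of estimated CPM. The 1.5-fold threshold, no floor and the floor of 50 reads are looser than the main rule, so under them no call could be lost. With the floor on the mean of the 2 values 9 did, without FZD7 and ROR1, which are low in Nondifferentiation. With the upper quartile floor 6 did, without DKK3, FZD7, LRP6, ROR1 and TCF7, since fewer genes reach it. PRICKLE1 in siSTAU1 lost its call with Nondifferentiation as the reference, a pseudocount of 10 or the upper quartile floor, so that 0 members were higher there.

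Without a floor siSTAU1 had 1353 higher and 1298 lower genes, and members 3 and 1. siUPF1 then had 1401 and 1297, and members 1 and 2, Differentiation 2828 and 3444, with 9 members lower, and siControl against Nondifferentiation 1260 and 1428, and members 4 and 3. These 9 include SFRP1, SFRP5 and WNT10A, which had 1 read in Differentiation and 0 in Nondifferentiation. There 1 read has a log2 value of -1.32, below the 0 given to no reads. The count of 3444 has the same coding and is not a count of genes with fewer reads. With the upper quartile floor the counts were 1 and 2 for siSTAU1, 10 and 2 for siUPF1, 487 and 513 for Differentiation, with 5 members higher and 1 lower, and 4 and 18 for siControl. With the floor on the mean they were 4 and 5 for siSTAU1 and 22 and 4 for siUPF1, and 11 genes were higher in siControl. At 1.5-fold they were 86 and 109 for siSTAU1, with 1 member lower, 254 and 132 for siUPF1, with 1 member higher, 1977 and 1970 for Differentiation, with 4 members lower, and 193 and 274 for siControl. Against Nondifferentiation siSTAU1 had 24 higher and 54 lower and siUPF1 46 and 71, so that the share of calls that were higher went from 47.1% to 30.8% and from 73.9% to 39.3%. A pseudocount of 10 left 12 genes higher in siControl. With the floor of 50 reads siSTAU1 had 51 and 41, siUPF1 109 and 49, siControl 85 and 125, with 2 members higher (FZD7 and ROR1), and Differentiation 1567 higher, with FZD4, FZD5 and SFRP4 added to the called members. The sampling of reads and the single library per group limit all of these values.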

Other observations

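Antisense symbols that share a name with members had few reads. CELSR3-AS1 had 2 reads in Nondifferentiation, 6 in siControl, 7 in siSTAU1, 4 in siUPF1 and 1 in Differentiation, beside 43 to 137 for CELSR3. FZD10-AS1 and PRICKLE2-AS2 had 0 in all 5 libraries.

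The deposited scaling did not treat low and high genes of a library alike. In Differentiation a read was worth 0.58 linear units at 20 reads and 0.738 at 500 reads, against 1.07 and 1.05 in Nondifferentiation. In siControl it was worth 1.35 and 1.17, in siSTAU1 1.26 and 1.12 and in siUPF1 1.13 and 1.05. Low members are therefore given in reads or CPM in the text, but some deposited log2 values stand beside them. Those of WNT16, CELSR1, AXIN2, ROR2, FZD7 and ROR1, and of FAT3 outside the members, carry this scaling. In estimated CPM the log2 folds of Differentiation over Nondifferentiation were -3.31 for WNT16 and 0.62 for CELSR1. That of siControl over Nondifferentiation was -0.92 for AXIN2. Those of Differentiation over siControl were 2.67 for FZD7 and 2.7 for ROR1.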
